A study of Homo sapiens with 8 samples.

Results

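The genes described are PIWIL1, PIWIL2, PIWIL3, PIWIL4, TDRD1, TDRD9, MAEL, DDX4, MOV10L1 and TEX11, 10 genes of the piRNA pathway and of germ cells that were chosen by name among the 57500 genes of the count table. RNAseq was measured in 8 libraries of HEK293T, a line from human embryonic kidney with the large T antigen of SV40. The DZNep group held 4 libraries of cells given 100 µM DZNep (3-deazaneplanocin A) for 48 h, and the Control group held 4 libraries of cells given vehicle for the same time. DZNep is an adenosine analog that inhibits AHCY, so that S-adenosylhomocysteine builds up and methyltransferases are inhibited. The paper calls the 4 replicates of a group biological replicates, while the labels do not say whether they were separate cultures. The p-values thus measure the spread between these libraries. Library totals ranged from 25043058 to 44902779 counts, with Control replicate 1 the shallowest. In that library, a gene without a count may still take up to 1.2e-05% of the counts, a limit that, like the intervals given for ratios, covers counting error only.

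piRNAs are small RNAs of the germline that are bound by PIWI proteins, a clade of the Argonaute family, and guide them to transposon transcripts. Tudor domain proteins dock on methylated arginines of the PIWI proteins and assemble the pathway in perinuclear granules, and RNA helicases process the precursors. In somatic cells most of these genes are silent, and promoter DNA methylation and repressive chromatin are known to keep many germline genes off. HEK293T is not a germ cell line. PRM1, PRM2, TNP1, TNP2, SPACA1 and ODF1, 6 of 10 spermatid markers, had no count in any library, while TSSK6, ACRV1, ACR and CRISP2 had counts. All 7 markers listed for HEK293 were tested, and 1, LHX1, was lower with DZNep (log2 fold change -1.43, adjusted p = 0.00593 from edgeR's quasi-likelihood test).

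RefSeq promoters (GRCh38.p14, from 250 bases before the start to 50 after it) were matched for 7 of the 10 genes, PIWIL1, TDRD1, TDRD9, MAEL, DDX4, MOV10L1 and TEX11. The 4 of them that rose with DZNep are printed first and then MOV10L1 and DDX4, which were not called, because methylation of CpG sites is a known layer of silencing at such promoters. Each is given 5′ to 3′ on the strand of the gene, with the CpG dinucleotides in capitals.
TDRD1, chr10:114179037-114179336, plus strand: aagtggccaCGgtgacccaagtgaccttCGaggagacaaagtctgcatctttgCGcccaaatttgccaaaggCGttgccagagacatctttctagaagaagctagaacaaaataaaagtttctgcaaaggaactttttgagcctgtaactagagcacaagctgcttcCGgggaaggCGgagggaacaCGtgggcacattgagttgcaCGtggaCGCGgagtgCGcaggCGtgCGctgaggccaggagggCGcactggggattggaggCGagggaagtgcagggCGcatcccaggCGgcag
TDRD9, chr14:103928206-103928505, plus strand: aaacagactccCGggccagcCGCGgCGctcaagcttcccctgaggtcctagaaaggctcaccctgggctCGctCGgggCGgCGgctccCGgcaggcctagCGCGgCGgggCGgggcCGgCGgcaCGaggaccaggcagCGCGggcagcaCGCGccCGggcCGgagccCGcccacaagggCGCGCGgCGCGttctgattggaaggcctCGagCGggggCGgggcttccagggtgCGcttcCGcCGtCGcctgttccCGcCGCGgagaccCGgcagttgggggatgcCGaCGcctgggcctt
MAEL, chr1:166975332-166975631, plus strand: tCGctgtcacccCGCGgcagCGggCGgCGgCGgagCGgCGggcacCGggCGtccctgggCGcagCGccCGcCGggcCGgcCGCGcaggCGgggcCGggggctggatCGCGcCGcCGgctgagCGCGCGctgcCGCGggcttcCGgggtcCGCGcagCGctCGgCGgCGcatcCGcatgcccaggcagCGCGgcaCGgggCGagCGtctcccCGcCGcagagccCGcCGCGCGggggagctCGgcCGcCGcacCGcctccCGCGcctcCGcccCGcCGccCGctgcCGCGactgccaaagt
TEX11, chrX:70908662-70908961, minus strand: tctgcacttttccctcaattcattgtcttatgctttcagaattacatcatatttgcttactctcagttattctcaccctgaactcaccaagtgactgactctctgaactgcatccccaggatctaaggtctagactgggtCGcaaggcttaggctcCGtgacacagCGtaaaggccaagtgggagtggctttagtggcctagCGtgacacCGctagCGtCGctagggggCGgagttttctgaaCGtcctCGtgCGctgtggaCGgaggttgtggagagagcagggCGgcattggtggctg
MOV10L1, chr22:50089756-50090055, plus strand: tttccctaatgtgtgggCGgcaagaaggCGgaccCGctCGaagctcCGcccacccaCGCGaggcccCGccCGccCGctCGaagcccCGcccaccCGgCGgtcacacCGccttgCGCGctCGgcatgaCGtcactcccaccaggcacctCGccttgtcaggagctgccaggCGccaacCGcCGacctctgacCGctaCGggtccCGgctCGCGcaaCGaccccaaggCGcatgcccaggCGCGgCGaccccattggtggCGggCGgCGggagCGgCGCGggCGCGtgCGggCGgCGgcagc
DDX4, chr5:55766635-55766934, plus strand: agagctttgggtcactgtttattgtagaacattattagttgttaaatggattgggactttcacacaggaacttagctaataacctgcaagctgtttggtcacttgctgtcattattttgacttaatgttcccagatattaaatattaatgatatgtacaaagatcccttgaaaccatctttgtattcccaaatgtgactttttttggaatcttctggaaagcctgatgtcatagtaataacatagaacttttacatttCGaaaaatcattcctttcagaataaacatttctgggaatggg

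CpG counts varied widely among the genes that rose. The promoter of MAEL held 60 CpG sites, more than 99.9% of the 35116 RefSeq promoters, and that of TDRD9 held 41. Both windows reach into a neighbouring gene with counts in the Control group. These are ILDR2, 42 bases from MAEL with 1462 counts, and ATP5MJ, 187 bases from TDRD9 with 10558 counts. The CpG sites of these windows are thus not those of MAEL or TDRD9 alone. TDRD1 and TEX11 held 17 and 13, close to the median of 14 over all promoters. MOV10L1 was as dense as TDRD9, with 44, and DDX4 held 1. The start that RefSeq gives for DDX4 lies 28868 bases from the first base of the gene in GENCODE, so its promoter is less certain. The E-box CACGTG, bound by MAX dimers and reading alike on both strands, was present at 2 positions in the TDRD1 promoter and in none of the other 6, and 7.26% of all promoters held it. The sequence GGCGGGA, a core of E2F sites searched on both strands, was present in PIWIL1, TDRD9 and MOV10L1 and in 15.4% of all promoters.

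With DZNep, 6 of the 10 genes rose from at most 7 counts to between 6 and 68 counts per library. These were PIWIL2, PIWIL3, TDRD1, TDRD9, MAEL and TEX11. PIWIL4, the one PIWI gene with counts above 10 in every Control library, had fewer counts in the DZNep library of each of the 4 replicate numbers. It was called with the replicate number as a block but not without it. PIWIL1, DDX4 and MOV10L1 were not called in either fit. In bulk RNA, fewer cells with a transcript and less of it per cell cannot be told apart. The 10 genes together had between 35 and 56 counts in a Control library and between 135 and 233 in a DZNep library. Calls were made with edgeR's quasi-likelihood test and required an adjusted p below 0.05 together with a log2 fold change beyond 1 in size. The expression filter kept 5 of the 10 genes, of which PIWIL2, PIWIL3, TDRD1 and TEX11 passed through their DZNep libraries alone and were called higher. Their calls are thus given as single values, beside 10.6% of all 19171 genes tested that were higher and 13.5% that were lower. Without the filter all 10 genes were tested, 6 were higher and 0 were lower, while 7.37% of the 40246 genes with at least 1 read were higher and 7.67% lower. With p left unadjusted and under 0.05, 7 of the 10 were higher and 1 lower in that edgeR fit. The share of all genes at that threshold is not given here. The 7 include PIWIL1, with 5 counts in all (unadjusted p = 0.0495, edgeR). DESeq2 called 6 of the 10 higher and 0 lower, beside 2910 higher and 3008 lower among the 40246 genes with at least 1 read. Some of the 40246, PIWIL1 among them, got no adjusted p from DESeq2, so these counts are not a share of genes tested. In CPM, the count per 1e+06 reads of the TMM-scaled library, each DZNep library exceeded each Control library for those 6 genes, and for 12.0% of all genes with at least 1 read. Among 2448 protein-coding genes with at most 3 counts in each Control library, 19.2% were higher. PIWIL1, PIWIL3, TDRD1, TDRD9 and TEX11 belong to that class, and 4 of these 5 were higher.

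**Figure D1:**
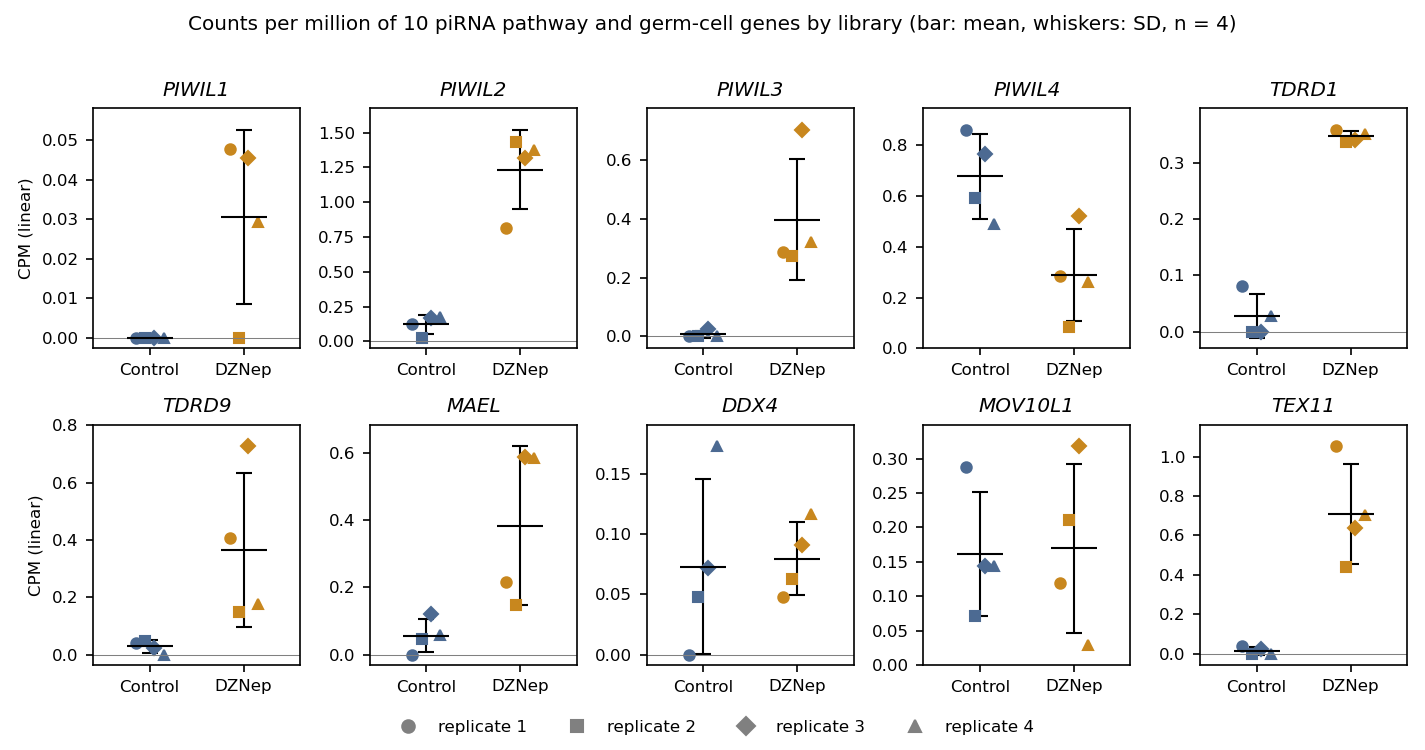
CPM of the 10 genes on linear axes, with 1 point per library, a bar at the mean and whiskers of 1 SD (n = 4 per group). For PIWIL2, PIWIL3, TDRD1, TDRD9, MAEL and TEX11 every DZNep point lies above every Control point, whereas the groups overlap for PIWIL1, PIWIL4, DDX4 and MOV10L1.

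**Figure D2:**
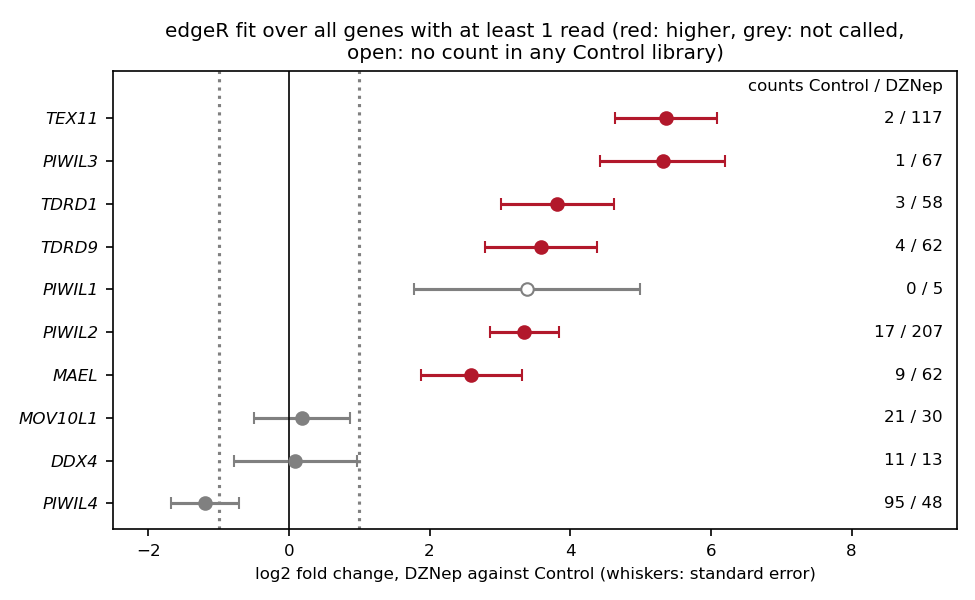
Log2 fold change of DZNep against Control with its standard error for the 10 genes, from edgeR's fit without a filter, with the summed counts of each group at the right. The values run from -1.19 for PIWIL4 to 5.36 for TEX11, and the open circle of PIWIL1, with 0 counts in the Control group, is not a bound.

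Of the PIWI genes, PIWIL2 and PIWIL3 rose. PIWIL2 (ENSG00000197181, chromosome 8 of GRCh38 from 22275316 to 22357568) is the human counterpart of mouse MILI, a cytoplasmic PIWI protein that cuts transposon transcripts. It had 3, 1, 7 and 6 counts in Control replicates 1 to 4 and 34, 68, 58 and 47 counts in DZNep replicates 1 to 4. The groups were far apart, with DZNep replicate 1 the lowest of the treated libraries. This corresponds to 0.122 ± 0.0692 CPM in the Control group and 1.23 ± 0.285 CPM with DZNep (SD, n = 4 each). On the log2 scale the change was 3.32 ± 0.47 (SE, adjusted p = 0.000393, edgeR). PIWIL3 (ENSG00000184571, chromosome 22 from 24719034 to 24774720), a PIWI gene known from oocytes, had 0, 0, 1 and 0 counts in the Control libraries and 12, 13, 31 and 11 in the DZNep libraries. DZNep replicate 3 stood above the other treated libraries. The summed counts of PIWIL3, 1 against 67, give a ratio of 57.1 with a 95% counting interval from 9.91 to 2290. On the log2 scale PIWIL3 changed by 5.30 ± 0.78 (SE, adjusted p = 0.000488, edgeR).

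PIWIL4 (ENSG00000134627, chromosome 11 from 94543840 to 94621421) is the counterpart of mouse MIWI2, which acts in the nucleus to direct DNA methylation of transposons. It had 21, 25, 32 and 17 counts in the Control libraries and 12, 4, 23 and 9 in the DZNep libraries, and only DZNep replicate 3 reached into the Control range. The levels were 0.678 ± 0.167 CPM in the Control group and 0.289 ± 0.180 CPM with DZNep (SD, n = 4 each). On the log2 scale the difference was -1.22 ± 0.47 (SE, adjusted p = 0.0629, edgeR), and a two-sided exact permutation test of the CPM gave p = 0.0571. With the replicate number as a block, it was -1.33 with an adjusted p-value of 0.0127, past both thresholds, as were 14.3% of genes that were lower and 11.7% that were higher in that fit. Without DZNep replicate 3 it was called as well, at -1.67 and an adjusted p-value of 0.0287. In GENCODE, PIWIL4 shares 602 exonic bases with FUT4 on the same strand, where a read fits both genes. FUT4 had a log2 difference of 0.32 (adjusted p = 0.352, edgeR). PIWIL1 (ENSG00000125207, chromosome 12 from 130337887 to 130372637), known from meiotic and postmeiotic spermatogenic cells, had 0 counts in the 4 Control libraries and 2, 0, 2 and 1 in the DZNep libraries. At this depth no difference was detectable for PIWIL1 (adjusted p = 0.156 from edgeR's unfiltered fit).

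Per length of exon, the order of the PIWI genes was exchanged between the groups. PIWIL4 had the highest level of the 4 in every Control library, from 0.109 to 0.191 CPM per kb, while PIWIL2 had from 0.00414 to 0.0302. In the DZNep libraries PIWIL2 had the highest level in each, from 0.142 to 0.249 CPM per kb, and PIWIL4 had from 0.0187 to 0.116. PIWIL4 took 87.0% ± 8.19 of the PIWI level in the Control group and 16.0% ± 7.69 with DZNep, whereas PIWIL2 took 12.2% ± 7.79 and 56.6% ± 13.7 (SD, n = 4 each). These shares were looked at after the counts were known and are given without a test. The levels stayed low beside those of the AGO genes, the somatic Argonautes of the microRNA pathway. AGO2 had 7.48 CPM per kb in the Control group and 5.23 with DZNep, against 0.215 for PIWIL2 with DZNep.

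**Figure D3:**
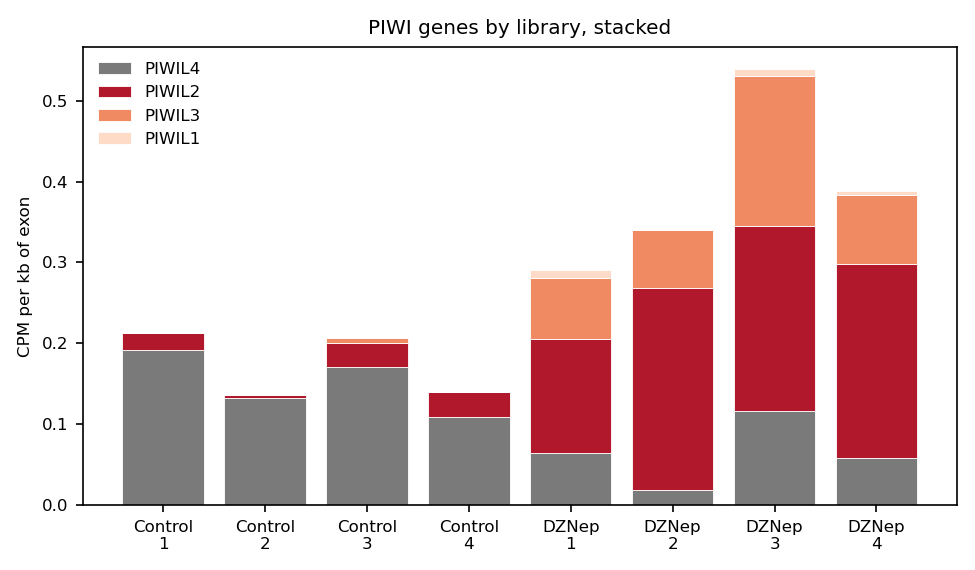
Stacked levels of PIWIL1 to PIWIL4 in CPM per kb of exon for each library. PIWIL4 makes up most of each Control bar, and PIWIL2 is the largest part of each DZNep bar, from 42.6% in replicate 3 to 73.3% in replicate 2.

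The Tudor domain genes TDRD1 and TDRD9 rose, as did MAEL. TDRD1 (ENSG00000095627, chromosome 10 from 114179270 to 114232666) encodes a protein with several Tudor domains that binds methylated PIWI proteins. It had 2, 0, 0 and 1 counts in the Control libraries and 15, 16, 15 and 12 in the DZNep libraries. The treated libraries were closer to each other than for any other of the 10 genes relative to their mean, at 0.347 ± 0.0101 CPM (SD, n = 4). The counts of 3 against 58 give a ratio of 16.5 with a 95% counting interval from 5.37 to 82.3. The log2 change was 3.81 ± 0.69 (SE, adjusted p = 0.0016, edgeR).

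TDRD9 (ENSG00000156414, chromosome 14 from 103928456 to 104052667) encodes a helicase with a Tudor domain. It had 1, 2, 1 and 0 counts in the Control libraries and 17, 7, 32 and 6 in the DZNep libraries. DZNep replicates 1 and 3 were the high ones, and the lowest treated library still exceeded every Control library. The ratio of the summed counts was 13.2, with a 95% counting interval from 4.91 to 50.04. On the log2 scale the change was 3.58 ± 0.80 (SE, adjusted p = 0.00217, edgeR without a filter). RD3L lies within TDRD9 on the opposite strand and shares no exonic base with it. RD3L had 0, 0, 0 and 1 counts in the Control libraries and 28, 9, 18 and 11 in the DZNep libraries, a log2 difference of 5.31 (adjusted p = 0.000151, edgeR). Only reads in exons were counted, and the strand setting of the counting is not given in the sources used here. Reads from an intron of either gene that fall on an exon of the other thus cannot be told apart.

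MAEL (ENSG00000143194, chromosome 1 from 166975582 to 167022214) encodes maelstrom, a granule protein needed for transposon silencing and spermatogenesis. It had 0, 2, 5 and 2 counts in the Control libraries and 9, 7, 26 and 20 in the DZNep libraries. Replicates 3 and 4 of the treated libraries were the high ones, and the lowest treated library, replicate 2, was just above the highest Control library at 0.147 against 0.120 CPM. The log2 change was 2.59 ± 0.72 (SE, adjusted p = 0.0112, edgeR without a filter), or 2.29 with an adjusted p-value of 0.0548 without DZNep replicate 3. ILDR2, the neighbour 42 bases away, was also higher, a log2 difference of 1.11 (adjusted p = 0.0261, edgeR).

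The 2 other helicases of the group were not called. DDX4 (ENSG00000152670, chromosome 5 from 55738017 to 55817157), the human vasa gene and a standard marker of germ cells, had 0, 2, 3 and 6 counts in the Control libraries and 2, 3, 4 and 4 in the DZNep libraries. The groups overlapped, and the ratio of the summed counts was 1.01 with a 95% counting interval from 0.417 to 2.48. MOV10L1 (ENSG00000073146, chromosome 22 from 50090006 to 50161690), which unwinds piRNA precursors, had 7, 3, 6 and 5 counts in the Control libraries and 5, 10, 14 and 1 in the DZNep libraries. Its ratio was 1.22 with a counting interval from 0.675 to 2.24. The adjusted p-values from edgeR's unfiltered fit were 0.955 for DDX4 and 0.865 for MOV10L1, and two-sided exact permutation tests of the CPM gave p = 0.886 and p = 0.943.

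TEX11 (ENSG00000120498, chromosome X from 70528940 to 70908711) encodes an X-linked protein of meiotic crossover formation and is the 1 gene of the 10 outside the piRNA pathway. It had 1, 0, 1 and 0 counts in the Control libraries and 44, 21, 28 and 24 in the DZNep libraries. Every treated library had at least 21 counts, against at most 1 without treatment. The summed counts of 2 against 117 give a ratio of 49.9 with a 95% counting interval from 13.5 to 417. On the log2 scale the change was 5.35 ± 0.66 (SE, adjusted p = 0.00019, edgeR). With DZNep, TEX11 reached 0.211 CPM per kb, next to PIWIL2 in the order of levels. A two-sided exact permutation test of the CPM gave p = 0.0286 for each of the 6 genes that rose, the smallest value that 4 against 4 libraries allow.

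Compared per length of exon, PIWIL4 was alone at the top of the 10 genes in the Control group, with a mean of 0.151 CPM per kb. MOV10L1, PIWIL2, DDX4 and MAEL followed at 0.0237, 0.0213, 0.0191 and 0.0179 CPM per kb, and TDRD9, TEX11, TDRD1 and PIWIL3 lay between 0.00513 and 0.00158. The lowest PIWIL4 library exceeded the highest MOV10L1 library, 0.109 against 0.0421 CPM per kb, while below PIWIL4 each pair of neighbours in this order overlapped between libraries. With DZNep the order ran from PIWIL2 at 0.215 and TEX11 at 0.211 through MAEL at 0.122 and PIWIL3 at 0.104 to TDRD9 at 0.0664 CPM per kb. PIWIL4 at 0.0643, TDRD1 at 0.0399, MOV10L1 at 0.0248, DDX4 at 0.0208 and PIWIL1 at 0.0058 CPM per kb came after them. In the DZNep group only DDX4 and PIWIL1 were neighbours without overlap. Genes further apart did separate, and the lowest library of PIWIL2 and of TEX11, at 0.142 and 0.132 CPM per kb, exceeded the highest of PIWIL4 at 0.116 CPM per kb.

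Of the 20 nearest protein-coding neighbours that do not overlap the 10 genes, 15 passed the filter. Of these 1 was higher and 2 were lower, beside 10.6% and 13.5% over all genes tested. ILDR2 beside MAEL was the higher one. ASPG beside TDRD9 fell by 3.22 on the log2 scale (adjusted p = 0.000422, edgeR) and PANX2 beside MOV10L1 fell by 2.69 (adjusted p = 3.62e-05, edgeR). Protein-coding genes that overlap one of the 10 are not in this tally. RD3L in TDRD9 was higher and FUT4 at PIWIL4 was not called. SLC38A9, on the opposite strand at DDX4, was lower (log2 fold change -1.07, adjusted p = 0.000997, edgeR without a filter).

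Calls among the other genes of the piRNA pathway, 1 higher and 2 lower of 16 tested, were near the 10.6% and 13.5% of all genes tested. Of the 22 such genes, 16 passed the filter, of which TDRD12 was higher, TDRD6 and TEX15 were lower, and the median log2 fold change was 0.12, against -0.03 over all genes tested. TDRD12, a Tudor protein of secondary piRNA biogenesis, rose from 0.375 ± 0.105 to 0.9497 ± 0.344 CPM (SD, n = 4 each), a log2 difference of 1.34 (adjusted p = 0.0187, edgeR). TEX15, a nuclear partner of the PIWIL4 branch, was the most abundant of the 3 and fell from 24.6 ± 12.4 to 6.72 ± 1.55 CPM (SD, n = 4 each), a log2 difference of -1.87 (adjusted p = 0.0014, edgeR). TDRD6, a component of the chromatoid body, fell by 1.11 on the log2 scale (adjusted p = 0.0177, edgeR). Without the filter, 3 of the 22 were higher and 2 were lower, beside 7.37% and 7.67% of the 40246 genes with at least 1 read. The median was 0.44 against 0.06 over the 40246 genes. The further higher ones were MORC1 and ASZ1, named after their values were seen. MORC1, which represses transposons in male germ cells, had 0 counts in the Control libraries and 16, 11, 13 and 5 in the DZNep libraries (adjusted p = 0.00038, edgeR). ASZ1, a mitochondrial-surface protein of piRNA biogenesis, had 0 counts in the Control group and 3, 3, 10 and 9 with DZNep (adjusted p = 0.00458, edgeR).

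Of 8 matched partners of TEX11 in crossover formation, 7 passed the filter, 1 was higher and 2 were lower, with a median log2 fold change of -0.96. With lists this short, such counts are not set apart from the 10.6% and 13.5% of all genes tested. MSH4 was higher (1.13, adjusted p = 0.0479, edgeR), whereas MSH5, its partner in a heterodimer, fell from 7.19 ± 1.83 to 1.96 ± 0.210 CPM (SD, n = 4 each), a log2 difference of -1.87 (adjusted p = 0.000165, edgeR). MLH3 fell by 1.41 (adjusted p = 0.00158, edgeR). MSH4 was not called without the filter (adjusted p = 0.0684, edgeR), where 0 of the 8 were higher and 2 were lower. With the replicate block and no filter MSH4 was called higher (log2 fold change 1.23, adjusted p = 0.00644, edgeR). With the replicate block SHOC1 was lower as well (log2 fold change -1.10, adjusted p = 0.0296, edgeR). Of 13 synaptonemal complex and cohesin genes, 6 passed, and the meiotic cohesin subunit STAG3 rose by 1.54 on the log2 scale (adjusted p = 0.00059, edgeR) while its counterpart SMC1B fell by 2.52 (adjusted p = 0.00125, edgeR), with a median of -0.81 over the 6. The block also added SYCP3 as lower (log2 fold change -1.21, adjusted p = 0.0300, edgeR). Without the filter, 3 of the 13 were higher and 1 was lower (median -0.26), beside 7.37% and 7.67% of all genes with at least 1 read. SYCP1 and HORMAD1, named after their values were seen, joined STAG3 as higher. SYCP1, the transverse filament protein, had 0 counts in the Control group and 7, 4, 8 and 9 with DZNep. HORMAD1, a chromosome axis protein, had 0, 1, 0 and 0 against 15, 12, 19 and 5 counts.

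Of 13 genes of meiotic entry and recombination, 8 passed the filter, with a median log2 fold change of 0.14. Of these 3 were higher and 2 were lower, beside 10.6% and 13.5% of all genes tested. PRDM9, which sets recombination hotspots by methylating histone H3, rose from 0.381 ± 0.242 to 2.34 ± 0.242 CPM (SD, n = 4 each), a log2 difference of 2.67 (adjusted p = 0.000367, edgeR). MEIOSIN, a transcription factor of meiotic entry, rose by 1.94 on the log2 scale (adjusted p = 0.000254, edgeR). ANKRD31 and YTHDC2 fell by 2.80 and 1.49 (adjusted p = 0.00141 and 0.000696, edgeR). The same counts, 3 and 2, were found without the filter over all 13, with a median of 0.13. Of all genes with at least 1 read, 7.37% were higher and 7.67% lower.

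Of 14 germ-cell RNA-binding and identity genes, 7 passed the filter, 3 were higher and 1 was lower, with a median of 0.35. TEX14, a protein of intercellular bridges, rose from 0.917 ± 0.193 to 9.33 ± 1.11 CPM (SD, n = 4 each), or by 3.35 ± 0.21 on the log2 scale (SE, adjusted p = 6.47e-06, edgeR). PRDM1 and DPPA2 rose by 2.33 and 1.30 (adjusted p = 5.67e-05 and 0.00325, edgeR), and TEX19 fell by 2.21 (adjusted p = 0.000467, edgeR). Without the filter 6 of the 13 genes with reads were higher and 1 was lower. The median of those 13 was 1.58, or 1.33 with genes absent from the Control set against 3 summed Control counts. DAZL, SOHLH1 and DPPA4 were the further ones, named after their values were seen. DAZL, an RNA-binding protein that marks germ cells, had 0 counts in the Control group and 4, 3, 3 and 2 with DZNep. Its adjusted p was 0.0285 with edgeR, 0.0597 with DESeq2 and 0.0895 with edgeR and the replicate block. BOLL, named after its value was seen, was called lower with the block and no filter (log2 fold change -1.40, adjusted p = 0.00867, edgeR). Over the 5 lists together, 9 of 44 genes tested were higher and 8 were lower, beside 10.6% and 13.5% of all genes. Without the filter 15 of 69 genes with reads were higher and 8 were lower, beside 7.37% and 7.67% of the 40246 genes of all kinds with at least 1 read. Among the 69, 16 had at most 3 counts in each Control library, and 7 of these were higher. Of all protein-coding genes of that class, 19.2% were higher. The median of the 10 genes named first was 3.37 in that fit, or 2.97 with PIWIL1 at its bound.

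**Figure D4:**
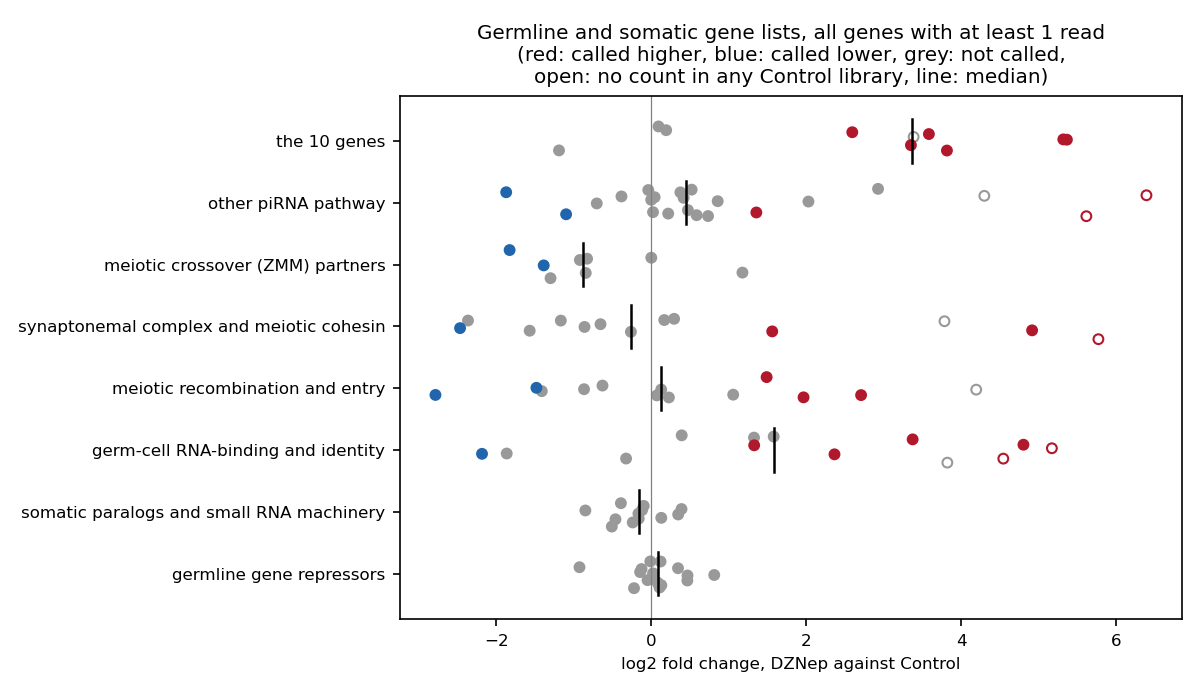
Log2 fold change of DZNep against Control from edgeR's unfiltered fit for the 10 genes and 7 further lists, with 1 point per gene and a line at the median. Each germline list other than the crossover partners has called genes on both sides of 0, while no gene is called in the lists of somatic paralogs and of repressors.

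Neither the somatic relatives nor the known repressors of germline genes were called. Of 12 somatic paralogs and small RNA genes, 0 were higher and 0 were lower with edgeR, beside 10.6% and 13.5% of all genes tested. Their median log2 fold change was -0.18. SND1, a ubiquitous Tudor protein named after its value was seen, had a log2 fold change of -0.87 (adjusted p = 0.00125, edgeR), short of the fold change threshold, with each DZNep library below each Control library. MOV10 and DDX3X, relatives of MOV10L1 and DDX4, had log2 fold changes of -0.19 and -0.24 with adjusted p-values of 0.299 and 0.552. Of 15 genes of DNA methylation, PRC1.6 and H3K9 methylation, 0 were called in either direction, beside the same 10.6% and 13.5%, with a median of 0.06. In CPM, each DZNep library exceeded each Control library for 3 of the 15, and for 12.0% of all genes with at least 1 read. For 1 of the 15 each DZNep library lay below each Control library. DNMT3A, a de novo DNA methyltransferase, had a log2 fold change of -0.95 (adjusted p = 0.000358, edgeR) and EHMT2, an H3K9 methyltransferase, one of 0.79 (adjusted p = 0.00164, edgeR), both short of the fold change threshold and named after their values were seen.

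None of the markers of other cell types was called higher by edgeR without the replicate block. Of 10 somatic gonad markers, 4 passed the filter, 0 were higher and AMH was lower (log2 fold change -1.77, adjusted p = 0.00197, edgeR). Over all genes tested, 10.6% were higher and 13.5% lower. With the block and no filter, INHA, named after its value was seen, was higher (log2 fold change 1.0006, adjusted p = 0.00986, edgeR). The summed level of the gonad markers was 25.05 to 53.3 CPM in the Control group and 27.7 to 40.9 CPM with DZNep. Of 9 pluripotency markers 3 passed the filter and 0 were called, with summed levels of 7.67 to 11.1 and 10.9 to 14.8 CPM. PRDM14 was at 0 in all libraries. The median of the 8 with reads was 1.28 without the filter, or 0.68 at the bound, against 0.06 over all genes. The 10 spermatid markers summed to 2.91 to 4.72 CPM in the Control group and 1.24 to 2.08 CPM with DZNep, and 2 of them passed the filter. TSSK6 was lower (log2 fold change -1.23, adjusted p = 0.0138, edgeR), and ACR, which did not pass, was lower without the filter, with 64 counts in the Control group and 2 with DZNep (log2 fold change -4.94, adjusted p = 0.000186, edgeR). The part of other cell types in the results was not tested.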

How the data were processed

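RNAseq was compared between 4 DZNep and 4 Control libraries, grouped by the sample titles. The authors used Trimmomatic 0.36 for trimming of paired 150 bp reads, STAR 2.5.2b for alignment (GRCh38) and featureCounts (Subread 1.5.2) for unique reads in exons, and deposited raw counts per gene. The second deposited table is a signal (counts over a size factor of each library) for 19118 genes with more than 80 counts, among them 3 of the 10 genes. Annotation release and strand setting are not given in the sources used here. Symbols, coordinates and exon lengths came from GENCODE v44 and matched 56410 of 57500 identifiers and 143 of 144 listed symbols.

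Counts were tested with edgeR 4.0.16 (R 4.3.3, filterByExpr, TMM, glmQLFit and glmQLFTest, Benjamini-Hochberg over all genes tested) and called where the adjusted p was below 0.05 and the log2 fold change beyond 1 in size. The script was tested on simulated data. CPM used TMM-scaled library sizes, and ratios of summed counts have exact 95% binomial intervals. The 10 genes and the 11 further lists were chosen with earlier results of these data known, so no p-value is given over a list. Named genes are the 10 and, of each list, up to 4 called genes with the largest change. Others are marked as named after their values were seen, or are relatives of the 10 (AGO2, MOV10, DDX3X) and markers named with their level. Genes that neighbour or overlap the 10 were named by their position. The rule for genes of like profile needed an average log2 CPM of at least 0, which 0 of the 10 reached. Deviations from the group means correlated at 0.13 to 0.65 between libraries of the same replicate number, over 4 pairs. Some libraries of unlike number reached similar values, and others were negative. Control replicate 1 had 0.50 with DZNep replicate 4, and Control replicate 2 had 0.38 with DZNep replicate 3. Control replicates 2 and 3 had -0.66 and -0.55 with DZNep replicate 4. The correlations thus do not settle whether the numbers pair the libraries, and the replicate block rests on the numbers alone. The edgeR fit has no replicate term, as in the study's methods, and the fit with the replicate block is given where it changes a call. Libraries of a group differed by more than sampling noise (chi-square per degree of freedom of at least 23.9). Alternatives were DESeq2 1.42.0, limma 3.58.1 on log2(normalized count + 1) or with 0.1 added, other scalings and filters, the replicate block and leaving out each library.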

Additional observations from a re-analysis of the deposited data

Results flagged for a closer look

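PIWIL3 had 1 library far from the others in both groups. Control replicate 3, with 0.024 CPM, held the only count of the Control libraries, where a single count beside zeros always sets its library apart, and DZNep replicate 3, with 0.704 CPM, lay above the other 3 treated libraries (0.274 to 0.322 CPM). In groups of 4 normally distributed values, chance alone sets a library apart in this way in about 1 of 20 groups. There were 20 groups, of which PIWIL1 in the Control group, with 0 counts throughout, could not be examined. Many groups hold few counts, so that rate need not hold here. PIWIL3 was called with each library left out in turn.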

How the results depend on the processing

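PIWIL2, PIWIL3, TDRD1, TDRD9 and TEX11 were called higher in every alternative that tested them. MAEL lost its call without DZNep replicate 3 (2.29). PIWIL4 was called lower with the replicate block (-1.33) and without DZNep replicate 3 (-1.67), and stayed below 0 in the other 13 of 15 alternatives. The block changed no other call among the 10 genes. limma on the normalized table, which holds 3 of the 10, called 2 higher with either pseudocount. With the replicate block 1 of the 10 was lower in place of 0, both with and without the filter. With each library left out, 0 to 1 were lower. Without any filter, Control replicate 4 left out also gave 1. At least 10 reads in every library left none of the 10 to test and 1141 genes higher. Of the 5 germline lists, 15 genes were higher in place of 9 without a filter and with DESeq2. DDX4 turned to -0.25, -0.07 and -0.09 without Control replicate 1, Control replicate 2 or DZNep replicate 4, and MOV10L1 to -0.04 and -0.30 without Control replicate 2 or DZNep replicate 3. The causes of these changes were not tested. PIWIL1, DDX4 and MOV10L1 have few counts, and smaller changes were not detectable at this depth.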
